A study of Homo sapiens with 6 samples.

Results

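Sites of thymidine glycol (Tg), an oxidised form of the DNA base thymidine, were examined at the edges of protein-coding genes in a human cell line. A site was counted at a gene edge when the midpoint of its row in the authors' list lay on chromosomes 1 to 22 and within 1 kb of the start or the end of any gene marked as protein-coding in RefSeq's table of GRCh38.p14. By this rule 107 of 3472 wild-type sites and 302 of 8810 double-knockout sites were at a gene edge, which made 409 of the 13061 rows of both lists. The cells were HEK293T, a line derived from human embryonic kidney that carries the SV40 large T antigen. They were wild type or carried disruptions of both NTHL1 and NEIL1 (NTHL1-/-,NEIL1-/-, called double knockout), and received no treatment in either genotype. Mapping was by DPC-Seq, in which fragmented genomic DNA was incubated with NTHL1 protein under reducing conditions, so that the enzyme stayed covalently tied to the DNA from which it had removed a base, and the tied fragments were enriched and sequenced. The labels list 2 labelled libraries and 1 input per genotype, and 1 list of sites was deposited for each genotype, so there was no spread between replicates and the genotypes could not be tested against each other. The sources used here do not say how many clones the knockout line represents or how the genes were disrupted.

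Tg arises when reactive oxygen species or radiation add hydroxyl groups to thymine, and it blocks most DNA polymerases. NTHL1 and NEIL1 are DNA glycosylases that cut such bases out as the opening step of base excision repair. Gene starts are where promoters lie and transcription begins, often in stretches rich in G and C, while gene ends are where transcripts are cleaved and polyadenylated.

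The 5 windows printed here run from 250 bases before to 50 bases after a gene start and are shown because a Tg site of each list reached into them. They are those of lowest wild-type q, without the window of TSC2, which shares the NTHL1 site on the opposite strand. They are RefSeq sequences of GRCh38.p14 read 5′ to 3′ along the gene's own strand, and capitals mark the bases covered by the site in both lists.
NTHL1, chr16:2047785-2048084, minus strand: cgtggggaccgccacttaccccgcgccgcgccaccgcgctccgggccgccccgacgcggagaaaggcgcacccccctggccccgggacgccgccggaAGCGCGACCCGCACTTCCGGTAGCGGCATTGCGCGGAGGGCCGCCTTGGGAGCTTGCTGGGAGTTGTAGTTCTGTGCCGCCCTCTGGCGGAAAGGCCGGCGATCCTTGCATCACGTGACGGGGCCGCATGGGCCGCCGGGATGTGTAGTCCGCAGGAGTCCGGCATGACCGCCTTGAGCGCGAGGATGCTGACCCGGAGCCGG
KCNN4, chr19:43780924-43781223, minus strand: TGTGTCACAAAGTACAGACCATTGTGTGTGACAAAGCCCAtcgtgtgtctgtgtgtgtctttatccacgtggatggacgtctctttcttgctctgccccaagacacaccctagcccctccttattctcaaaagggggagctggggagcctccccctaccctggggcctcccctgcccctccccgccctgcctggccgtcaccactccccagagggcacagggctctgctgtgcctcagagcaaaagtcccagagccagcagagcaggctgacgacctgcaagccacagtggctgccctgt
VANGL1, chr1:115641720-115642019, plus strand: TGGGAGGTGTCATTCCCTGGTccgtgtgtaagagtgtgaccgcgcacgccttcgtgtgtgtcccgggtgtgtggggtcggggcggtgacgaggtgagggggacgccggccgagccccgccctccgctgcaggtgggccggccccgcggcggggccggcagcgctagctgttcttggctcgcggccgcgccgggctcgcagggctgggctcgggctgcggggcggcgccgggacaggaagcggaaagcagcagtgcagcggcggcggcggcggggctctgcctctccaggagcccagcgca
GDF11, chr12:55742872-55743171, plus strand: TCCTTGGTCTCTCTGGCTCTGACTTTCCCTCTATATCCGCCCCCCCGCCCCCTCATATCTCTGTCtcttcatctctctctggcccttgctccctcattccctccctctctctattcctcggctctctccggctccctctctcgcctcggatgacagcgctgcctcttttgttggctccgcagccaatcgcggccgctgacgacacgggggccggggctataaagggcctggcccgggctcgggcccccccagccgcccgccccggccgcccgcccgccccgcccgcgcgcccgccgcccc
TTBK1, chr6:43243231-43243530, plus strand: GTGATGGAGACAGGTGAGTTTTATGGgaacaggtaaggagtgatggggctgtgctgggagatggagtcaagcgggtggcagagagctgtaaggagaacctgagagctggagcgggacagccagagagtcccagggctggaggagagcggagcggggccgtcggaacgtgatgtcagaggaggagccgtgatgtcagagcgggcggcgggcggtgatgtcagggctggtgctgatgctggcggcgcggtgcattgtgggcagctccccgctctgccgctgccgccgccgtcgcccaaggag
In NTHL1 the capitals run over the start itself, from base 98 of the window to base 300, so that 203 of 300 bases were covered. In the other windows the site only reached the far upstream bases, 40 of them in KCNN4, 21 in VANGL1, 65 in GDF11 and 26 in TTBK1. The letters TATAAA, the core of a TATA box, were found on either strand in the GDF11 window and in none of the other 4, and all 5 windows held CCGCCC, the core of a GC box, on either strand.

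Gene edges held slightly more sites than their share of the chromosome span, but fewer per Mb than the stretches 1 to 5 kb from an edge. The share of all sites was 3.08% in wild type (exact binomial 95% interval 2.53% to 3.71%) and 3.43% in the double knockout (3.06% to 3.83%), and the windows within 1 kb of an edge covered 2.41% of the 2873 Mb from the outermost gene or site to the other end of each chromosome. Without chromosome 19 the shares were 2.37% (1.88% to 2.96%) and 2.67% (2.33% to 3.04%), where edges covered 2.28% of the span. The wild-type interval holds that value, and the double-knockout interval begins just above it. Stretches to which reads cannot be mapped were not taken out of the span. The share covered by edges may therefore be understated, and no difference between the genotypes can be read from these intervals. Against its own flanks, the density within 1 kb was 0.805 times that at 1 to 5 kb in wild type (0.645 to 0.997). In the double knockout it was 0.867 times (0.761 to 0.985). The side of the edge was not the same in the lists. In wild type the ratio was 0.677 inside genes (0.498 to 0.906) and 1.02 outside (0.727 to 1.40). In the double knockout it was 0.955 inside (0.808 to 1.12) and 0.749 outside (0.605 to 0.922). Whether the sides differed was not tested. Intervals here cover counting error only: amplified copies of a read, and sites that lie near each other, are not independent. The number of edge sites was 2.82 times higher in the double knockout, and the number of all sites on these chromosomes 2.54 times. The double-knockout data were also deeper, with a lowest background (the caller's genome-wide rate) 1.69 times that of wild type, and total reads per library are unknown. Reads at the summit of a site were recovered from the deposited values and had a median of 14 at wild-type edge sites (13 at all sites) and 18 at double-knockout edge sites (17 at all sites).

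Starts carried more sites than ends. Strand was known for 15101 of the 19126 protein-coding genes, and for these each edge could be named a start or an end. In wild type 53 edge sites were nearest a start, 28 nearest an end and 26 nearest an edge of a gene whose strand was not given. The double-knockout numbers were 149, 84 and 69. Starts therefore made up 65.4% of the wild-type sites with a named edge (54.0% to 75.7%) and 64.0% of the double-knockout sites (57.4% to 70.1%), while starts and ends were equally many in the annotation. Chromosome 19 supplied many of the wild-type start sites and few of the end sites. These shares were not computed without it, so the excess of starts was not examined on the other chromosomes alone. The midpoint lay inside the gene at 45.8% of wild-type edge sites (36.1% to 55.7%) and at 56.0% of double-knockout edge sites (50.2% to 61.6%). Per Mb within 1 kb of starts there were 1.96 wild-type sites, and 5.51 of the double knockout. Per Mb within 1 kb of ends there were 1.01 and 3.04, against 1.21 and 3.07 per Mb over all 22 chromosomes.

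Few sites lay close to the edge itself. Only 6 of the 107 wild-type and 28 of the 302 double-knockout edge sites had a midpoint within 250 bp. The density in that innermost bin was 0.328 sites per Mb in wild type (exact Poisson 95% interval 0.120 to 0.713) and 1.53 per Mb in the double knockout (1.02 to 2.21). It then rose through the next bins to 2.66 per Mb (1.94 to 3.57) and 6.47 per Mb (5.31 to 7.82) at 750 to 1000 bp. Beyond 1 kb it fell back, to 1.82 and 4.86 per Mb at 2 to 5 kb and 1.52 and 3.86 per Mb at 10 to 50 kb. The dip was therefore limited to the innermost bins and had a shoulder on its outer side. As a ratio, the density within 500 bp over that from 500 to 1000 bp was 0.364 in wild type (30 against 77 sites, 0.230 to 0.562) and 0.397 in the double knockout (90 against 212 sites, 0.306 to 0.510).

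The dip was present at starts and at ends. At starts the ratio of the inner to the outer 500 bp was 0.335 in wild type (0.168 to 0.631) and 0.391 in the double knockout (0.269 to 0.562). At ends it was 0.442 in both lists, with intervals of 0.176 to 1.03 in wild type, which holds 1, and 0.269 to 0.711 in the double knockout. The bins further out are given for each kind of edge. At starts in wild type the density climbed from 0.279 sites per Mb within 250 bp to 3.25 at 750 to 1000 bp. In the double knockout it climbed from 10 sites in 7.17 Mb to 8.34 per Mb at 500 to 750 bp, and both then declined to 1.41 and 3.59 per Mb at 10 to 50 kb. At ends the density rose from 0.137 and 1.51 per Mb to 1.82 and 5.17 per Mb at 750 to 1000 bp and stood at 1.51 and 4.05 per Mb at 10 to 50 kb. At 500 to 750 bp from ends it was still 1.03 (0.415 to 2.13) and 3.39 per Mb (2.15 to 5.09). The values at 2 to 5 kb from ends were 1.68 and 4.54 per Mb, which those intervals hold. At 1 to 2 kb from ends the density was 1.455 (1.02 to 2.01) and 3.88 per Mb (3.14 to 4.74), lower than at 2 to 5 kb in both lists. Whether starts and ends differed in this profile was not tested. Over the whole 1 kb, starts were close to their surroundings, at 1.05 times (0.758 to 1.44) and 1.02 times (0.841 to 1.23) the density of 1 to 5 kb. Ends were below theirs, at 0.627 times (0.402 to 0.945) and 0.697 times (0.544 to 0.885).

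**Figure D1:**
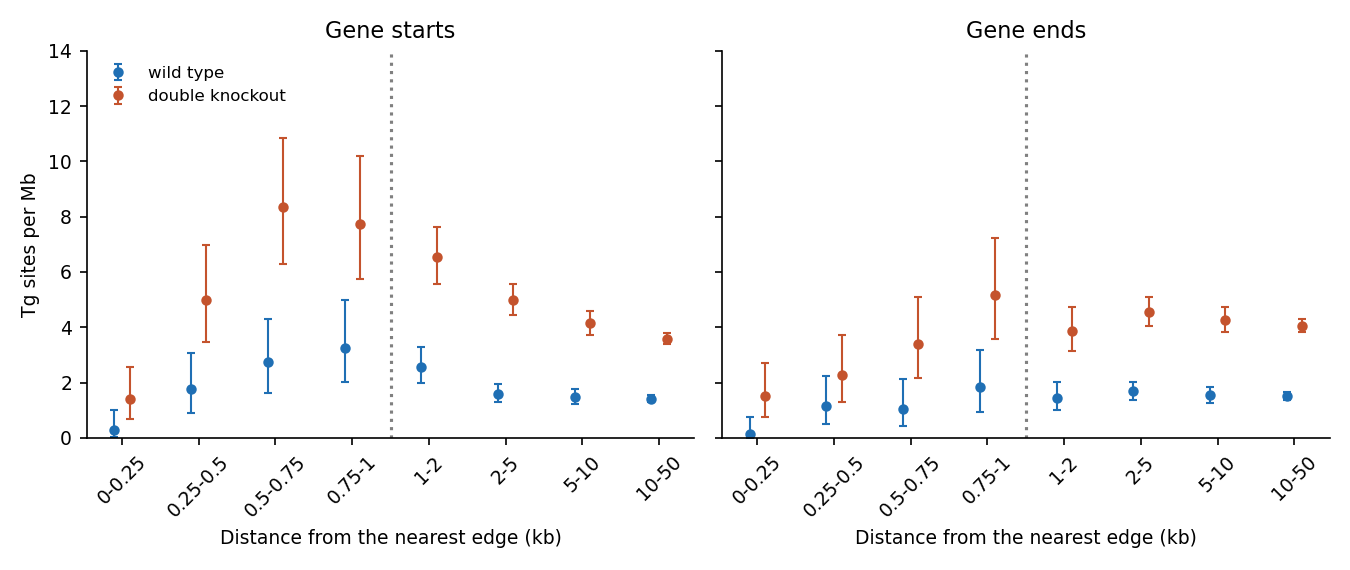
Tg sites per Mb (vertical axis) by distance of the site's midpoint from the nearest gene start (left) or end (right) in kb, for the wild-type and the double-knockout list; bars are exact Poisson 95% intervals and the dotted line marks 1 kb. Both lists are lowest in the innermost 250 bp, at 0.279 sites per Mb for wild-type starts and 0.137 for wild-type ends, and the density at starts peaks between 500 and 1000 bp.

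The few sites closest to an edge had named neighbours in both genotypes. The 6 wild-type sites within 250 bp lay at the start of NTHL1 (midpoint 52 bp inside the gene), in DONSON, a replication fork protein (101 bp from an edge of unknown strand and also near the end of SON, a splicing factor of nuclear speckles), at PAXBP1 (172 bp outside), at GAP43, a growth-cone protein (135 bp upstream of the start), and at the gene models LOC107987545 (92 bp) and LOC124902420 (106 bp beyond the end). Of these, all but the GAP43 site, which had 11 reads and a fold enrichment of 4.82, overlapped a double-knockout site. The double knockout had 28 such sites. At 4 bp, 1 of them lay upstream of TSPAN1, a tetraspanin, where 26 reads gave a fold of 6.82, and another lay beyond the end of MAB21L4, where 14 reads gave a fold of 5.35. The TSPAN1 site also lay within 1 kb of the start of PIK3R3, a regulatory subunit of phosphoinositide 3-kinase, and neither site had an overlapping wild-type row. Others in the double knockout lay 44 bp upstream of DACH1, a developmental transcription cofactor (24 reads), 89 bp inside SERPINA9 (15 reads), 216 bp upstream of BCL9, a cofactor of Wnt signalling (18 reads), and 177 bp beyond the end of CNN1, a smooth-muscle calponin (25 reads). A row that ran across the edge itself was rare, with 6 of 107 in wild type and 19 of 302 in the double knockout, and at starts with 1 of 53 and 5 of 149.

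In strength the edge sites were like the rest of their lists, apart from a few. Fold enrichment, the authors' ratio of reads at the summit to background, had a median of 4.95 in wild type (order-statistic 95% interval 4.79 to 5.33) against 5.14 over all sites, and of 5.01 in the double knockout (4.80 to 5.22) against 4.94. A fold of 10 or more was reached by 3 of 107 wild-type edge sites, where 1.50% of all wild-type sites did so, and by 2 of 302 in the double knockout, where 1.02% did. Sites at least 1 kb wide numbered 1 of 107 (interval of the share 0.0237% to 5.10%) and 10 of 302 (1.60% to 6.01%), against 4.55% and 5.93% of all sites, which both intervals hold. The median width was 349 bp in wild type and 392.5 bp in the double knockout.

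The strongest edge sites belonged to PAXBP1 and NTHL1, and they were the same in both lists. PAXBP1 encodes a binding partner of the transcription factors PAX3 and PAX7, and its site at chr21:32771726-32772130 crossed the gene's right-hand edge, whose kind is not given here. It had 45 reads in wild type (32.8 to 60.2) on a background of 0.740, a fold of 26.4, and 38 reads in the double knockout (26.9 to 52.2) on a background of 1.25, a fold of 17.3. Scaled to wild-type depth the double-knockout reads were 0.499 times the wild-type reads (0.315 to 0.786). NTHL1, the enzyme used to capture the sites and one of the disrupted genes, carried a site at each edge. The site at its start, chr16:2047579-2047987, had 52 reads in wild type (38.8 to 68.2) and 59 in the double knockout (44.9 to 76.1), with folds of 17.4 and 13.1 and a scaled ratio of 0.6705 (0.454 to 0.993). It also lay at the start of TSC2, whose product restrains the growth regulator mTORC1 and which is transcribed from the opposite strand. The site at the end of NTHL1, chr16:2039791-2040368, had 37 wild-type and 41 double-knockout reads, with folds of 10.8 and 7.95 and a ratio of 0.655 (0.410 to 1.05). Its double-knockout row was also within 1 kb of the end of NHERF2. Set apart from these, the highest folds at any edge were 8.39 in wild type, at ARHGEF1, and 9.84 in the double knockout, at NPFFR1.

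**Figure D2:**
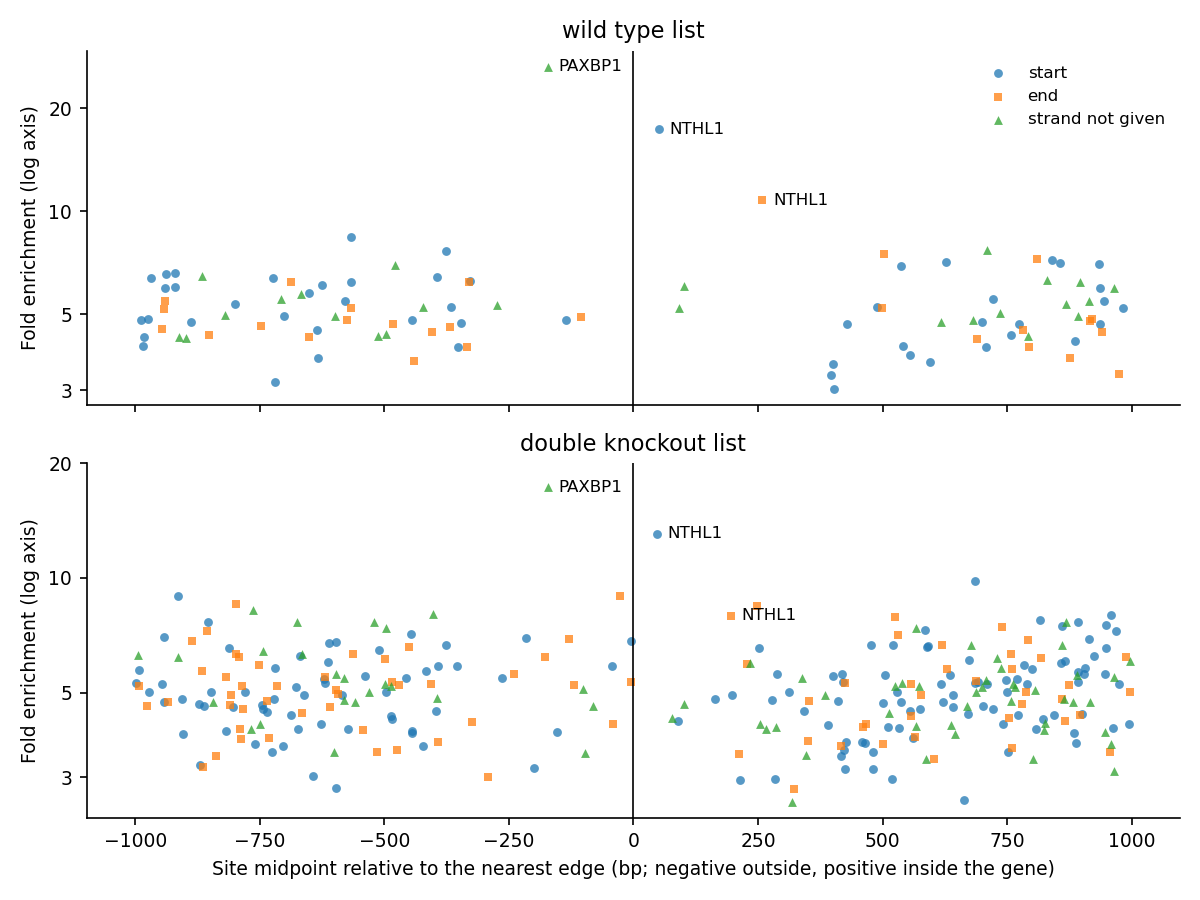
Fold enrichment (log axis) of each gene-edge site against the position of its midpoint relative to the nearest edge in bp, negative outside and positive inside the gene, for the wild-type list (top, 107 sites) and the double-knockout list (bottom, 302 sites), with symbols for the kind of edge. Points thin out within 250 bp of the edge, and the PAXBP1 and NTHL1 sites stand above the rest, with wild-type folds of 26.4, 17.4 and 10.8.

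At gene starts, 38 of the 53 wild-type sites overlapped a double-knockout site. Next to NTHL1, the lowest q among wild-type start sites was at ABHD14A (chr3:51975430-51975775), where 23 wild-type and 29 double-knockout reads lay 538 and 505 bp inside the gene. That site was also near the starts of ABHD14B, a hydrolase encoded beside it, and of the read-through gene ABHD14A-ACY1. KCNN4, a calcium-activated potassium channel, had 20 and 19 reads at a site 376 bp upstream in wild type. ARHGEF1, a guanine nucleotide exchange factor, had 17 reads in each list 568 bp upstream in wild type, and RHOC, a small GTPase, had 18 and 23 reads inside the gene. These sites differed little in position between the lists. CD300A, an inhibitory receptor of leukocytes, had 19 and 22 reads upstream of its start, and C2CD2 had 22 and 29. KLK5, a protease of the skin, had 14 and 21 reads, and NPFFR1, a neuropeptide receptor, had 13 and 25. In the double knockout, low q values were also seen at UBE2QL1 (33 reads, 15 in wild type), ADAMTS10, a protease of the extracellular matrix (40 and 15), LMTK3, a kinase (31 and 14), TDRD15 (31 and 18), CCDC187 (30 and 15) and VANGL1, a component of planar cell polarity (26 and 15). The remaining shared start sites lay at ASF1B, ZBTB45, NOD2, FCMR, GDF11, PTAFR, PRLH, ZNF146, ZNF260, ECE1, PAX2, SMIM24, KDELR1, YJU2, HDGF, SAXO3, SPACA3, CAMK1, LHX6, ZNF300, ATP9A and TTBK1, the last with 2 sites. Among all wild-type start sites the reads ranged from 7 to 52 with a median of 13, and among double-knockout start sites from 9 to 59 with a median of 18.

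At gene ends, 22 of the 28 wild-type sites were shared. CREB3L3, a membrane-bound transcription factor of liver, had 16 wild-type and 24 double-knockout reads 502 and 526 bp before its end, with folds of 7.52 and 7.88. THAP8 had 17 and 23 reads, and its fold was 7.23 in wild type. Beyond the end of DLX2, a homeobox factor of forebrain and limb, there were 16 and 19 reads, and the same numbers were found beyond the end of RPS6KA2, a ribosomal S6 kinase. NEU2, a sialidase, had 16 and 26 reads, MUC3A, an intestinal mucin, had 19 and 30, and NACAD had 17 and 35. CALML5, a calmodulin-like protein of epidermis, had 16 and 38 reads 943 and 856 bp beyond its end. FAM53A had 12 and 28 reads and the gene model LOC124902420 had 10 and 29. Shared end sites were further found at ZMAT2, AMACR, SEMA4A, ITIH3, KLK15, ELL, CDK5R2, MRRF, LOC124902215, POLR2A, the largest subunit of RNA polymerase II, and SPATA20. End sites held 9 to 37 reads in wild type, median 12, and 8 to 41 in the double knockout, median 17.

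Where the strand of the gene was not given, 24 of 26 wild-type sites were shared. After PAXBP1, these included CCDC63 with 21 wild-type and 49 double-knockout reads, the DONSON site 23 and 26, and the site at the gene model LOC128966726 had 19 and 34. ZSWIM4 was the only shared edge site of this kind with fewer double-knockout reads than wild-type reads besides PAXBP1, at 14 and 10. Others included TMEM98, PLK5, ARSA (a lysosomal sulfatase), TINCR, SNX32, SLC45A2, FOXS1, BST1, RGS11, USH1G, DLGAP3, LOC107987545, TMPRSS6, OPN4, PLPPR2, MGLL and SBK2.

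Sharing between the genotypes was near the level of all sites. A row counted as shared when it overlapped a row of the other list by at least 1 bp. Of the wild-type edge sites 84 of 107 were shared, or 78.5% (69.5% to 85.9%), where 75.7% of all wild-type sites were. Of the double-knockout edge sites 78 of 302 were shared, or 25.8% (21.0% to 31.2%), where 28.5% of all were. For 74 of the 84 and 73 of the 78 the partner was itself an edge site, and the other partners had midpoints beyond 1 kb. Shared sites had higher folds than unshared ones, with medians of 5.24 against 4.73 in wild type and 5.93 against 4.74 in the double knockout. Being called in both lists by itself favours strong sites.

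Reads at the shared edge sites were similar in the 2 genotypes once scaled by 1.69. The median of scaled double-knockout over wild-type reads was 1.02 at the 84 sites (0.936 to 1.07), with 38 below 1, and 0.940 at all 2630 shared sites (0.929 to 0.955). It was 1.01 at starts (0.840 to 1.07) and 0.973 at ends (0.800 to 1.30). The wild-type sites at SLC45A2 and AMACR had the same double-knockout row as partner, so the ratios are not all independent. The ratio's 95% interval lay below 1 at 2 of the 84 sites, PAXBP1 and the NTHL1 start, where 2.43% of all shared sites did so. It lay above 1 at 0 of 84, where 0.342% of all shared sites did. At the NTHL1 start the upper limit of 0.993 depends on the depth ratio. Taken per bp of the narrowest site, that ratio was 1.61 in place of 1.69, which moves the limit above 1. These intervals are exact for 2 Poisson counts, and at 82 of 84 sites the reads could not show a difference. The lowest ratio was 0.422, at ZSWIM4 (0.168 to 1.02). The highest were 1.71 at the end of LOC124902420 (0.812 to 3.94), 1.58 at the start of ADAMTS10 (0.852 to 3.07) and 1.55 at the start of LHX6, a homeobox factor of interneurons (0.660 to 4.05). FCMR, the Fc receptor for IgM, had the most double-knockout reads at its summit of any shared edge site, 65 against 28 in wild type, although that partner row was not itself within 1 kb of the start by its midpoint.

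**Figure D3:**
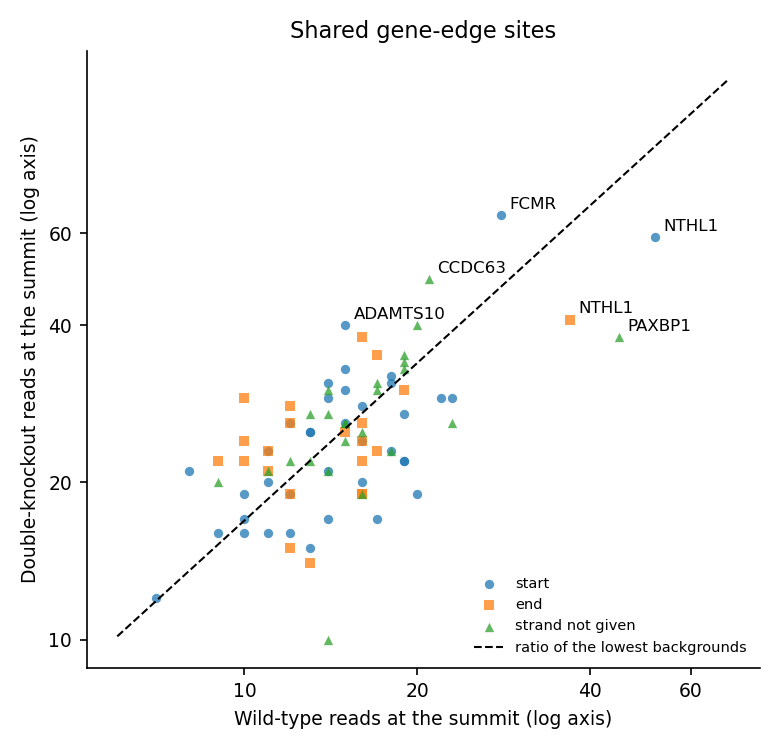
Reads at the summit in the double-knockout list (vertical, log axis) against reads in the wild-type list (horizontal, log axis) for the 84 shared gene-edge sites, with symbols for the kind of edge; the dashed line is the ratio of the lowest backgrounds, 1.69. Most points scatter around the line, and the PAXBP1 site and both NTHL1 sites lie below it.

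Edge sites found in the double knockout alone had fewer reads than the shared ones, whose median was 24, or 14.2 after scaling. A shared site had to be called in both lists, which by itself favours sites with more reads. The 224 unshared double-knockout edge sites had a median of 16 reads, or 9.46 after scaling to wild-type depth, where wild-type edge sites had a median of 14 and a lowest value of 7. After scaling, 24 of the 224 reached 14 reads, and 24 of the 224 fell under 7. Among the stronger ones were the sites at SELENBP1, a selenium-binding protein (28 reads, fold 7.65, edge of unknown strand), and at the start of REM2, a small GTPase (25 reads, fold 7.77). RAD54L2, a helicase-like protein, had 20 reads and a fold of 7.98 inside its start. The site near the end of PRDX5, a peroxiredoxin that breaks down peroxides, held 27 reads, that beyond the end of TSPAN17 32, and that inside the start of IL11RA, the receptor for interleukin 11, 27. Further double-knockout sites with low q near ends were at the gene models LOC124902898 and LOC124903762 and at FSAF1. None of these had an overlapping wild-type row, and the highest scaled value among the 224 was 18.9 reads.

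The 23 unshared wild-type edge sites were also weak. Their reads ranged from 8 to 18 with a median of 11, and their folds reached 6.37. That highest value was at C3orf70, 968 bp upstream of its start with 18 reads. PLXNB1, a semaphorin receptor, had 13 reads upstream of its start, MAP2K2, a kinase of the ERK cascade, had 11 inside its start, and CMKLR1, a receptor for chemerin, had 12 beyond its end. The others included NFATC4, LGALS14, MOBP, GAP43, IL11, AURKC, GIMAP6 and EVC2. At ZNF471 both lists had an edge site, but the rows did not overlap.

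By gene rather than by site, 111 of the 19126 protein-coding genes had a wild-type edge site, which is 0.580% of them, and 323 had a double-knockout edge site, which is 1.69%. In both lists 80 genes had one, 78 of them with overlapping rows, and 354 had one in either list. More than 1 edge site was rare. In wild type NTHL1 had a site at its start and at its end, and TTBK1, a kinase of tau and tubulin, had 2 around its start, 346 bp upstream with 9 reads and 708 bp inside with 10. In the double knockout 8 genes had 2 edge sites. TTBK1 kept both positions, with 16 and 19 reads. NTHL1, LMTK3, FXYD1, IQCF5 and PTH2 had a site at the start and at the end, and LRFN1 and KLK14 had 2 around the start. Apart from NTHL1, TTBK1 and LMTK3, which had its start site in wild type too, none of the 8 had a wild-type edge site. PTH2 and IQCF5 are short genes, of 1.02 and 1.88 kb, so that their edges lie close together.

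Some sites lay near edges of more than 1 gene, as happens at shared promoters and at closely packed genes. This was so for 5 of 107 wild-type and 26 of 302 double-knockout edge sites. In wild type these were the sites at NTHL1 and TSC2, at ABHD14A, ABHD14B and ABHD14A-ACY1, at DONSON and SON, at SNX32 and LOC124902693, and at FOXS1 and DUSP15. All 5 were also in the double knockout. Of the 26 in the double knockout, 6 were near starts only, 3 near ends only, 3 near a start and an end, and 14 involved a gene without strand. The pairs of starts included ZNF790 with ZNF345 (21 reads), NFKBID with HCST (17 reads) and METTL6 with EAF1 (13 reads). Examples with an end were WIZ with RASAL3 (21 reads), SRF, the serum response factor, with CUL9 (17 reads), DNAJA4 with SKIC8 (18 reads) and PALM3 with IL27RA (20 reads).

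Gene families were counted from name lists and set beside the background of 0.580% and 1.69% of all coding genes. Of 18 base excision repair genes only NTHL1 had an edge site. Among 505 ZNF zinc finger genes, DNA-binding proteins that are often repressors, 4 had a wild-type and 17 a double-knockout edge site (3.37%). All of the 17 but ZNF662 and ZNF300 lay on chromosome 19, which had 57.2 double-knockout edge sites per 1000 coding genes of any kind. Whether the family differed from other genes of that chromosome was not tested. ZNF146 had 14 and 29 reads upstream of its start and ZNF260 11 and 16, while ZNF574 (23 reads) and ZNF527 (19 reads) had a site in the double knockout only. Of 178 homeobox and other developmental factors, 4 had a wild-type edge site (DLX2, PAX2, FOXS1 and LHX6) and 6 a double-knockout one, the same 4 with SOX13 and TBX19. PAX2, a factor of kidney and eye development, had 12 and 16 reads upstream of its start. Potassium channels had 1 and 3 of 94 genes, KCNN4 in both and KCNA2 (20 reads) and KCNJ14 (22 reads) in the double knockout. Solute carriers had 1 and 8 of 384, with SLC45A2 in both and SLC8A2, a sodium-calcium exchanger, the one of lowest q in the double knockout alone (27 reads). Mucins had 1 and 2 of 18, MUC3A in both and MUC8 in the double knockout, and TMEM genes 1 and 3 of 226.

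Several large families had no edge site in either list. This held for 42 collagens, 91 cadherins, 26 adhesion GPCRs, 152 keratin and keratin-associated genes, 85 histone genes and 77 ribosomal protein genes. Olfactory receptors, of which 391 were counted, had no wild-type edge site and 2 of the double knockout, OR51D1 and OR10H3, with 11 and 13 reads. A count of 0 allows a share of up to 1.97% of the keratin list, 3.30% of the cadherins and 11.5% of the adhesion GPCRs, all above the background, so no shortage was detectable there. For the olfactory receptors in wild type it allows up to 0.767%, also above the background. In the double knockout their share was 0.51%, lower than the background of 1.69%, and this difference was not tested. A pair of families was picked after the sites had been seen and is given as a description only. Of 15 kallikrein-related peptidase genes, which form a cluster on chromosome 19, KLK5 and KLK15 had an edge site in wild type and KLK5, KLK15, KLK2, KLK12 and KLK14 in the double knockout. Of 7 FXYD genes, regulators of the sodium pump, FXYD1, FXYD3 and FXYD7 had one in the double knockout and none had one in wild type. The FXYD genes with a site also lie on chromosome 19. That chromosome had 20.7 wild-type and 57.2 double-knockout edge sites per 1000 coding genes, and 0.580% and 1.69% of all coding genes had an edge site.

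Chromosome 19 was the main address of the edge sites. It held 30 of 107 wild-type edge sites, or 28.0% (19.8% to 37.6%), and 83 of 302 in the double knockout, or 27.5% (22.5% to 32.9%). The chromosome has 7.59% of the coding genes counted and 6.54% and 6.90% of all sites. Of its own sites 13.2% and 13.7% were at gene edges, where edges cover 8.74% of its span. The next highest share in wild type was on chromosome 3, at 9 of 123 sites or 7.32%, against 4.51% in the double knockout, and chromosomes 8, 13, 15 and 18 had no wild-type edge site. The dip near the edge remained when chromosome 19 was left out, with an inner to outer ratio of 0.477 in wild type (0.286 to 0.780) and 0.395 in the double knockout (0.291 to 0.531). Within 5 Mb of the outermost gene or site of a chromosome lay 22 of 107 wild-type edge sites (20.6%, 13.4% to 29.5%), where 27.7% of all wild-type sites did. In the double knockout 46 of 302 did so (15.2%, 11.4% to 19.8%), where 18.9% of all did, and both intervals hold the share of all sites.

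**Figure D4:**
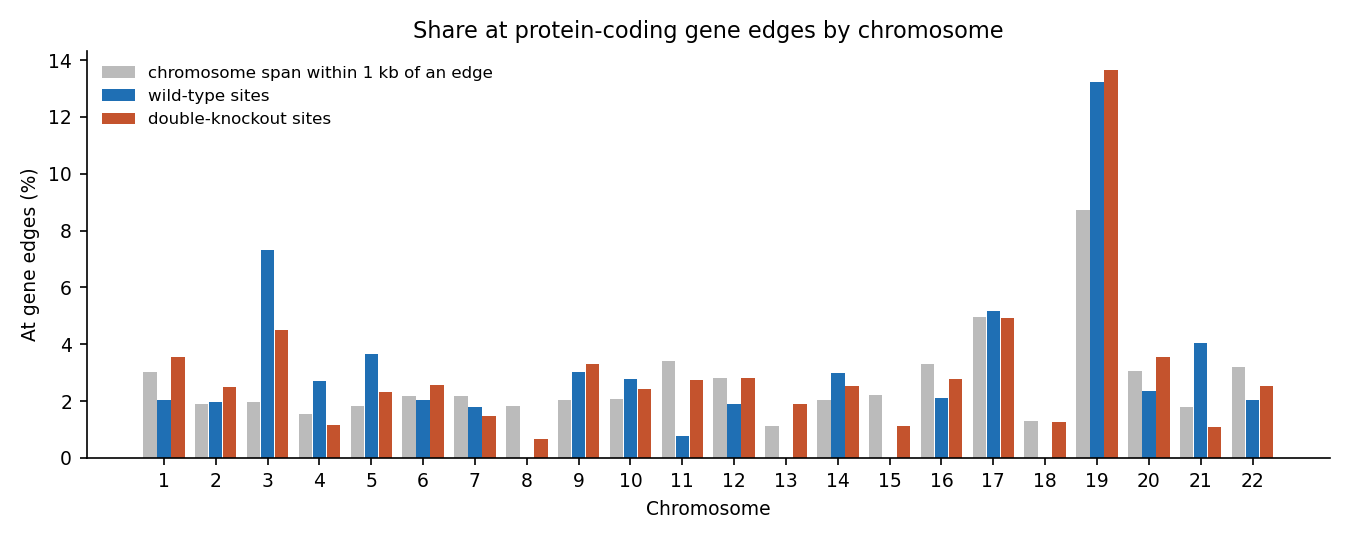
Share of each chromosome's sites that lay at a protein-coding gene edge (percent) in the wild-type and double-knockout lists, beside the share of the chromosome's span within 1 kb of an edge. Chromosome 19 stands out with 13.2% and 13.7% against 8.74% of its span.

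Starts with a Tg site were not poorer in G and C than other starts. A promoter sequence was held for 13150 gene starts, among them 46 of those with a wild-type site and 143 of those with a double-knockout site. The median G+C content of the 300-base window was 65.0% at starts with a wild-type site (60.7% to 69.3%), 63.0% at starts with a double-knockout site (60.3% to 65.0%) and 62.7% at all starts. AT-rich starts were few among them: a G+C content below 45% was found at 1 of 46 and 5 of 143 windows, against 11.2% of all. CpG dinucleotides, the usual target of DNA methylation, were at 0.603 of the number expected from base composition at starts with a double-knockout site (0.512 to 0.728) and 0.771 at all starts. At starts with a wild-type site the value was 0.673 (0.432 to 0.835). These windows describe the gene start, which most sites did not touch, since 10 windows were overlapped by a wild-type site and 24 by a double-knockout site. In those 24 the median G+C content was 57.8% (53.0% to 65.3%), and the CpG value was 0.408 (0.275 to 0.745), below that of all starts. In the 10 windows overlapped by a wild-type site the medians were 67.2% (60.0% to 73.3%) and 0.773 (0.223 to 0.915). A G+C content below 45% was found in 2 of the 24 overlapped double-knockout windows (8.33%) and in 0 of the 10 wild-type ones. With so few windows, a shortage of AT-rich starts cannot be read from those that were overlapped.

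Short motifs were searched by their letters on both strands of the same windows. TATAAA was in 10.1% of all windows, 6.52% of those with a wild-type site and 8.39% of those with a double-knockout site. TTTT, a run of thymines, was in 65.9%, 56.5% and 60.8%, and CCGCCC was in 58.9%, 56.5% and 52.4%. These counts only describe the letters of the windows, and overlaps between motifs were not removed.

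**Figure D5:**
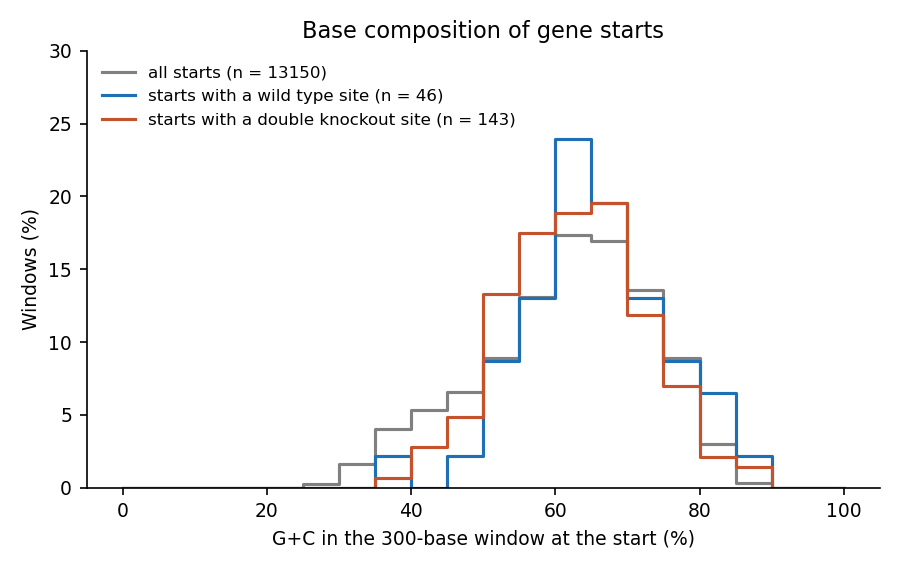
Distribution of G+C content (percent, bins of 5) of the 300-base windows at gene starts, as percent of windows, for all 13150 starts, the 46 with a wild-type site and the 143 with a double-knockout site. The 3 distributions peak between 60% and 70%, and the windows below 45% that make up 11.2% of all starts are few among starts with a site.

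The 1 kb limit cut through a smooth range of distances. Just inside it in wild type were SAXO3 (988 bp from the start, 11 reads), FCMR (983.5 bp, 28 reads) and SMIM24 (982.5 bp, 14 reads), and just outside were FGD2 (1002 bp, 12 reads), ADAMTS4 (1003 bp, 11 reads) and CPN2 (1014 bp, 11 reads). In the double knockout LRFN1 (997.5 bp, 16 reads), FGD2 (997 bp, 18 reads) and GPATCH4 (997 bp, 28 reads) were just inside, and SPACA3 (1002 bp, 16 reads) and FXYD1 (1004 bp, 16 reads) were among those just outside. FGD2 thus had overlapping sites in the 2 lists on either side of the limit.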

How the data were processed

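Members and gene lists were chosen with earlier results of these data known. The 6 samples were 2 labelled libraries and 1 input of each genotype. The submitters' processing notes name hg38, MACS2, Bowtie2, deepTools and bedtools, without versions or settings. Neither the handling of the paired libraries and duplicates nor the choice of input is given in the sources used here. The deposited score is 10 times the −log10 q, rounded down. The deposited fold is the authors' ratio of reads at the summit to local background. The −log10 p and −log10 q were deposited as the caller gave them, and q reached 0.0450 (wild type) and 0.0489 (double knockout). The deposited summit offset is in bp. All were used within a list, to order or choose its sites and to recover reads.

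Reads were recovered from fold and −log10 p with pseudocounts of 1 and a Poisson tail, and came out whole within 0.001 in 100% of 3688 and 9373 rows. Double-knockout reads were divided by 1.69, the ratio of the lowest backgrounds. Genes came from RefSeq GRCh38.p14, with strand from a companion promoter table for 15101 of 19126, and a gene without strand has unnamed edges. A site was assigned to its nearest edge by midpoint, and density is the number of sites over the length of each distance bin. Scripts used python 3.11.15, numpy 2.4.6, scipy 1.17.1, pandas 2.3.3 and matplotlib 3.10.9, and were tested on simulated data. Intervals are at 95% and are exact binomial, exact Poisson or from order statistics. Named genes were, per list, the 10 start and 10 end sites of lowest q, genes with overlapping sites in both lists, genes with more than 1 edge site, base excision repair genes, family members of lowest q, sites near several genes, sites next to the 1 kb limit, and promoter windows overlapped in both lists. Sites within 250 bp of an edge, the highest and lowest read ratios, and unshared sites outside these lists were named after their values were seen. Alternatives were the summit for the midpoint, windows of 500 bp and 2 kb, stricter q, 1 site per 100 kb, no broad sites, a 50% overlap, and another depth ratio. Chromosome X was left out by the rule. A few genes that these rules select are not reported here.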

Additional observations from a re-analysis of the deposited data

Results flagged for a closer look

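Chromosome X was outside the rule, and it too held sites at protein-coding gene edges. In wild type 8 of its 146 sites were within 1 kb of an edge, or 5.48% (exact binomial 95% interval 2.40% to 10.5%). In the double knockout 22 of 467 were, or 4.71% (2.98% to 7.05%). The part of this chromosome's span within 1 kb of an edge was not computed, so whether these shares exceed it is unknown. GATA1, a transcription factor of red blood cell development, IQSEC2, an exchange factor of synapses, PNMA3 and ZNF630 were among the genes that had an edge site in both lists. CCDC120 and ELK1 had one in the wild-type list only. APEX2, a nuclease that acts on abasic sites, SYN1, a synaptic vesicle protein, TIMP1, an inhibitor of metalloproteases, and IDS, a lysosomal sulfatase, were among those with one in the double-knockout list only.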

How the results depend on the processing

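No paired analysis was possible because each genotype has 1 list for its 2 libraries and no result comes from a test. Of 75 alternative values for 19 results, 48 stayed within the interval of the main value or, for counts, within 1.5 times of it, and 27 moved. Those that moved followed mostly from the window. With 500 bp the share at edges was 0.864% (wild type) and 1.02% (double knockout), and with 2 kb 7.00% and 7.29%. Start sites then numbered 14 and 116 in wild type and 44 and 310 in the double knockout, end sites 9 and 64 and 27 and 180, and genes 31 and 251 and 97 and 670. With q of at most 0.0001 wild type had 31 start and 13 end sites, and 92.3% of wild-type and 32.0% of double-knockout edge sites were shared. A 50% overlap of both rows left 60.8% and 20.9% shared, and 1 site per 100 kb left 92 double-knockout start sites. Windows overlapped by a double-knockout site had a median G+C of 57.8%, and the depth ratio per bp gave a read ratio of 1.08. Leaving out chromosome 19, an alternative chosen after seeing the data like those without NTHL1 and without gene models named LOC, gave shares of 2.37% and 2.67%. With medians of 14 and 18 reads, only large differences at single sites could be seen. The input libraries were not used here.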
